A study of Homo sapiens with 2 samples.

Results

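The genes described here are long non-coding RNAs (lncRNAs) of 2 overlapping kinds in human corneal epithelial cells (HCECs): the host transcripts of small RNAs, and a set of well-studied or abundant lncRNAs. They were chosen by name. Array features with exactly 1 gene symbol were taken where the symbol was *SNHG* plus a number, was *MIR* plus letters or numbers ending in *HG*, or was 1 of 16 symbols listed in full, and this gave 26 of the 22368 genes on the arrays. Of these, 6 were hosts of small nucleolar RNAs (snoRNAs), 13 were hosts of microRNAs and 7 were other lncRNAs, each measured by 1 feature. A further 36 names that met the rule stood only on features shared with another symbol and were given no value, among them *GAS5*, *NEAT1*, *H19*, *SNHG1*, *MIR17HG* and *MIR22HG*. The 26 genes are therefore not a full account of the host genes, since 19 snoRNA hosts and 12 microRNA hosts are in that group.

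HCECs are an SV40-immortalized line, so the cells are those of 1 transformed culture and not of a corneal tissue. They received 50 nM of a miR-184 mimic, which is a synthetic RNA that supplies the mature microRNA, or a negative control (NC), and total RNA was profiled at 48 h to look for targets of miR-184. Both cultures received the same transfection reagent, and there was 1 array per condition. No test can be made with 1 array per condition, so no *P*-value or error is given, and an effect of miR-184 cannot be told apart from a difference between the 2 cultures or arrays.

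Host genes carry their small RNAs in introns or exons. After splicing, most snoRNAs are trimmed out of the removed intron and packed with proteins into particles. In these the snoRNA guides chemical modification, mainly of ribosomal RNA. The spliced host transcript often does not code for protein and is degraded by nonsense-mediated decay. MicroRNA hosts are cut in the nucleus by the DROSHA enzyme, which releases a hairpin precursor. A host and its small RNAs thus start as 1 transcript but are removed by separate routes. The mature microRNA loads into an Argonaute protein and pairs with target RNAs mainly through its seed, bases 2 to 8.

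The mature sequences below are those of miR-184 and of the best-known microRNAs inside the hosts described here, to show which of them share a seed. They were taken from RefSeq (GRCh38.p14), run 5′ to 3′, and have the seed in capitals.
hsa-miR-184: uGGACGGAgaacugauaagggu
hsa-miR-31-5p: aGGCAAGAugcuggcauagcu
hsa-miR-100-5p: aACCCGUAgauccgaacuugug
hsa-miR-99a-5p: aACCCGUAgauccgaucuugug
hsa-let-7a-5p: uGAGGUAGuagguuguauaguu
hsa-let-7c-5p: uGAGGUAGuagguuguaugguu
hsa-miR-125b-5p: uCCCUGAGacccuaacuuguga
hsa-miR-181a-5p: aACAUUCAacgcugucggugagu
hsa-miR-181b-5p: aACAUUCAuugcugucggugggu
The miR-184 sequence lies at chr15:79209840-79209861 on the plus strand, outside all 26 genes. That of miR-31-5p lies at chr9:21512158-21512178 on the minus strand, inside *MIR31HG*. *MIR100HG* on chromosome 11 and *MIR99AHG* on chromosome 21 hold clusters of the same make-up. The first holds miR-100-5p (chr11:122152275-122152296, minus strand), let-7a-5p (chr11:122146568-122146589, minus strand) and a copy of miR-125b-5p (chr11:122099809-122099830, minus strand). The other holds miR-99a-5p (chr21:16539101-16539122, plus strand), let-7c-5p (chr21:16539838-16539859, plus strand) and the other copy of miR-125b-5p (chr21:16590253-16590274, plus strand). The miR-181 pair is likewise held by *MIR181A1HG* on chromosome 1 (chr1:198859108-198859130 for miR-181a-5p and chr1:198858925-198858947 for miR-181b-5p, minus strand) and *MIR181A2HG* on chromosome 9 (chr9:124692480-124692502 and chr9:124693725-124693747, plus strand). The seed ACCCGUA was shared by miR-100 and miR-99a, GAGGUAG by let-7a and let-7c, and ACAUUCA by miR-181a and miR-181b. None of 42 mature microRNAs read from inside the hosts had the seed of miR-184 (0 of 42).

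Signals were deposited on the log2 scale, and the median of all features was 3.68 with miR-184 and 3.61 with NC. The difference of a gene is its miR-184 value minus its NC value on this scale, and a gene is counted as higher or lower at 1.5 times or more. Signals of different genes come from different probes and are not compared with each other. The labelled cell type was checked first. Of 9 epithelial markers with a value, 5 were at or above the median signal of all genes (4.24), among them *KRT5* (13.63 with miR-184 and 12.75 with NC), *CDH1* (15.59 and 14.84) and *EPCAM* (12.81 and 12.35). The corneal markers *KRT3*, *KRT12* and *PAX6* were below it in both arrays, at 3.82 and 3.81, 3.44 and 3.55, and 3.54 and 3.48. *KRT14*, a general epithelial marker, was below it too, at 3.75 in miR-184 and 3.56 in NC. None of 5 keratocyte or fibroblast markers (0 of 5), 1 of 3 endothelial markers (*CDH5*, 6.77 and 8.19), 0 of 3 melanocyte markers and 1 of 3 leukocyte markers (*CD68*, 7.63 and 7.62) reached it. The arrays thus showed most of the general epithelial markers above the median, but neither *KRT14* nor these corneal markers. The part of the differences in *KRT5*, *CDH1* and *CDH5* in the results below was not tested.

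Among the 26 genes, 1 was at least 1.5 times higher in miR-184 transfected HCECs and 0 were lower. Over all genes 3.74% were higher and 4.17% lower at that threshold. At 2 times the counts were again 1 higher and 0 lower, with 0.984% of all genes higher and 1.35% lower. The gene was *RUNX1-IT1*, a transcript from inside the *RUNX1* gene. The median difference of the 26 genes was 0.10, against 0.04 over all 22368 genes, with 18 above 0 and 8 below. Without *RUNX1-IT1* the differences ran between -0.49 and 0.51, and the median was again 0.10. The plot of all 26 signals shows the 2 arrays close together for the other genes.

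**Figure D1:**
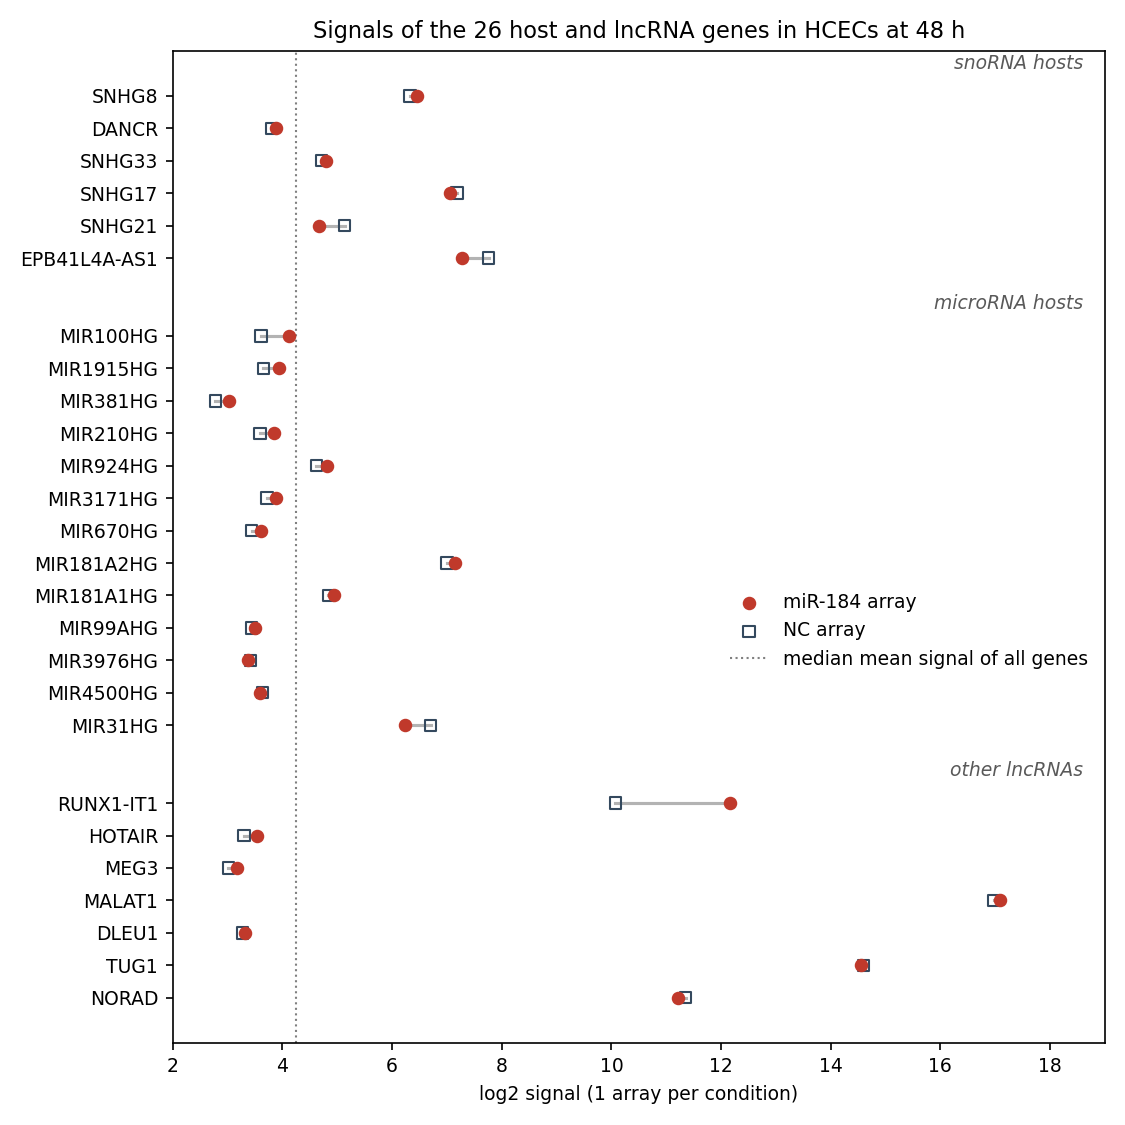
Log2 signals of the 26 genes (x axis, log2 units) in the miR-184 array (filled circles) and the NC array (open squares), 1 array per condition and so without error bars; the dotted line is the median mean signal of all genes, 4.24. Only *RUNX1-IT1* (12.17 in miR-184, 10.07 in NC) is separated by more than 1.5 times, and 13 of the genes are below the dotted line.

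Signal level divided the genes evenly. At or above the median signal stood 13 genes, with a median difference of 0.08, 7 above 0 and 6 below, where the median over all genes of that level was -0.02. Below it stood the other 13, with a median of 0.17, 11 above 0 and 2 below. All 11184 genes of that level had a median of 0.07, with 7192 above 0 and 3336 below. Genes of low signal seldom passed the threshold anywhere on the arrays, with 1.23% higher and 0.572% lower, against 6.25% higher and 7.77% lower at or above the median signal. The 1928 genes that RefSeq annotates as lncRNAs are a closer yardstick for the 26, and 2.02% of the 1928 were higher and 1.4% lower, with a median of 0.07. The 1928 include the 26 themselves except *TUG1*, which RefSeq annotates as protein-coding. Of the 307 among the 1928 at or above the median signal, 7.17% were higher and 5.21% lower.

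**Figure D2:**
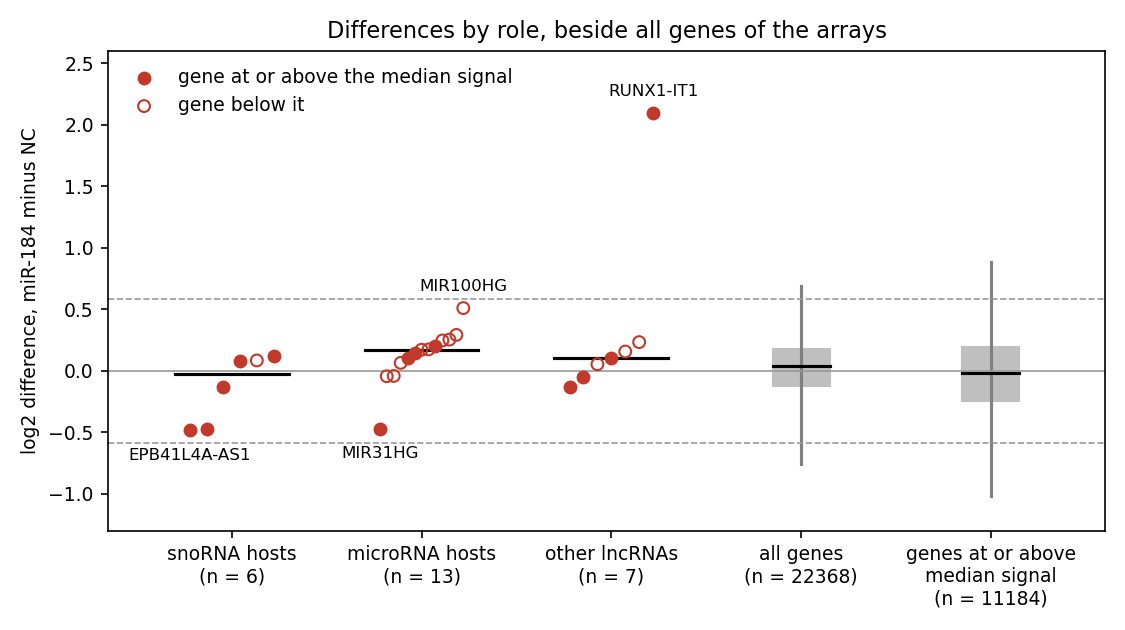
Log2 differences (y axis, miR-184 minus NC) of the 26 genes by role, each point 1 gene (filled, at or above the median signal of all genes; open, below it) and each black bar a median; on the right, all genes and those at or above the median signal are drawn as median, quartiles (box) and a line that leaves out the outer 2.5% of genes on each side (-0.76 to 0.69 and -1.02 to 0.88). Dashed lines mark 1.5 times in either direction, and *RUNX1-IT1* at 2.10 is the only one of the 26 genes outside them.

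*RUNX1-IT1* had a log2 signal of 12.17 in miR-184 transfected HCECs and 10.07 in NC, a difference of 2.10 or 4.28 times. It ranked 11 of 22368 genes from the top, and its difference was the largest among the 1928 lncRNA genes. Over the other scalings of the arrays the difference lay between 2.06 and 2.15. *RUNX1-IT1* lies within *RUNX1*, the gene of a transcription factor of blood formation and epithelial growth, on the same strand in RefSeq. The symbol *RUNX1* stands on a feature shared with another symbol, so *RUNX1* has no value here. The 4 features before *RUNX1-IT1* in the array's order were all above 0. The unnamed feature just before it was at 10.28 in miR-184 and 9.35 in NC (0.93, 1.91 times), and the one before that, which carries several symbols, at 7.68 in miR-184 and 7.26 in NC (0.42, 1.34 times). *LINC00160* was at 3.53 in miR-184 and 3.06 in NC (0.46), and an unnamed feature 4 places before *RUNX1-IT1* at 4.04 in miR-184 and 2.97 in NC (1.06, 2.09 times). The 4 features after *RUNX1-IT1* differed by less than 1.5 times, between -0.22 and 0.16. In bulk RNA, more cells that express a gene and more RNA per cell cannot be told apart. Whether the signal came from a separate transcript or from unspliced *RUNX1* RNA was not tested.

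The snoRNA hosts showed no common direction. Their median difference was -0.03 for 6 genes, with 3 above 0 and 3 below, and none passed 1.5 times (0 of 6). *EPB41L4A-AS1*, which carries *SNORA13*, had the lowest difference of all 26 genes, with log2 signals of 7.28 in miR-184 and 7.76 in NC (-0.49, 1.40 times lower). *SNHG21* was next at 4.66 in miR-184 and 5.13 in NC (-0.48, 1.39 times lower). Both stayed short of the threshold, and their differences lay between -0.53 and -0.43 and between -0.52 and -0.47 over the other scalings.

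*SNHG17*, the host of the *SNORA71* family, was at 7.05 in miR-184 and 7.18 in NC (-0.13). *SNHG8* was at 6.45 in miR-184 and 6.33 in NC (0.12), and *SNHG33* at 4.79 in miR-184 and 4.71 in NC (0.08). *DANCR*, a lncRNA best known for holding back differentiation of epidermal progenitors and a host of *SNORA26*, was at 3.89 in miR-184 and 3.80 in NC (0.08). These 4 genes differed by far less than 1.5 times, and *DANCR* was the only snoRNA host below the median signal. Without it the median of the snoRNA hosts was -0.13.

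The small RNAs inside the snoRNA hosts included several that passed the threshold, although no snoRNA host did. RefSeq places 42 small RNA genes inside 19 of the 26 genes, and 31 of them, inside 16, had a value. Of the 8 snoRNAs and small Cajal-body RNAs (scaRNAs) with a value, in 5 hosts, 7 were below 0, 4 were at least 1.5 times lower and 1 was higher, with a median of -0.53. The difference of 6 of the 8 was lower than that of the host. Of all 259 snoRNA and scaRNA genes on the arrays 25.9% were lower and 4.63% higher, and the 251 outside the hosts had a median of -0.13, with 63 lower. All 8 inside the hosts were at or above the median signal, against 153 of the 251 outside, so these values are not matched for signal. Strand was not checked for the 8.

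*SCARNA15*, inside *SNHG21*, had a log2 signal of 3.79 in miR-184 and 4.88 in NC (-1.10, 2.14 times lower), the lowest difference among the 31. Inside *SNHG17*, *SNORA71C* was at 11.80 in miR-184 and 12.72 in NC (-0.92), and *SNORA71A* at 13.32 in miR-184 and 14.10 in NC (-0.77). *SNORA71D* was at 10.65 in miR-184 and 11.24 in NC (-0.59), and *SNORA71B* at 8.02 in miR-184 and 8.45 in NC (-0.43). All 4 members of the family differed the same way while their host differed by -0.13. Since their sequences are much alike, probes may pick up more than 1 of them and the 4 values are not independent. *SNORA24* inside *SNHG8* was at 10.98 in miR-184 and 11.45 in NC (-0.46), opposite in sign to its host. *SNORA13* inside *EPB41L4A-AS1* was at 5.87 in miR-184 and 6.26 in NC (-0.39), close to its host.

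*DANCR* was the exception. Its *SNORA26* was at 5.19 in miR-184 and 4.53 in NC (0.66, 1.58 times higher), while *MIR4449*, a microRNA gene inside the same host, was at 4.39 in miR-184 and 4.92 in NC (-0.53). The 2 small RNAs thus lay on opposite sides of a host whose own difference was 0.08.

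**Figure D3:**
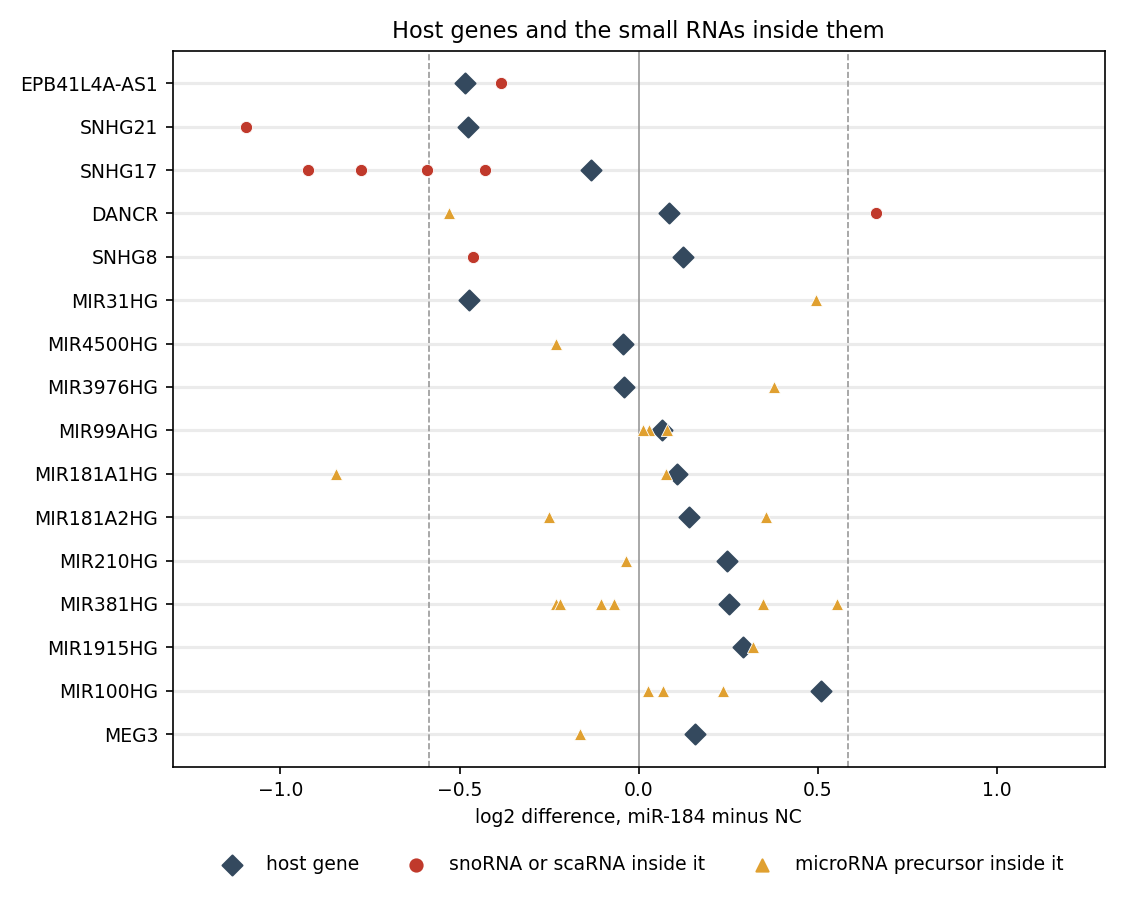
Log2 differences (x axis, miR-184 minus NC) of 16 host genes (diamonds) and of the 31 small RNA genes inside them (circles, snoRNAs or scaRNAs; triangles, microRNA precursors), with dashed lines at 1.5 times. In the upper 5 rows 7 of the 8 circles lie left of 0, with *SCARNA15* at -1.10 farthest out, while the microRNA precursors scatter around their hosts.

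The microRNA hosts had mostly positive and small differences. Of 13 genes, 10 were above 0 and 3 below, with a median of 0.17 and a range between -0.47 and 0.51, and none passed 1.5 times (0 of 13). Of the 1928 lncRNA genes 1206 were above 0 and 659 below, with 2.02% higher and 1.4% lower. Among all genes below the median signal 7192 of 11184 were above 0, with 1.23% higher and 0.572% lower. Only 4 of the 13 microRNA hosts reached the median signal. Among these was *MIR181A2HG*, at 7.14 in miR-184 and 7.0 in NC (0.14). *MIR181A1HG* was at 4.95 in miR-184 and 4.84 in NC (0.11), and *MIR924HG* at 4.81 in miR-184 and 4.62 in NC (0.20). *MIR31HG*, the host of miR-31, was the fourth and the only one of these below 0, at 6.23 in miR-184 and 6.70 in NC (-0.47, 1.39 times lower).

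*MIR31HG* lies near the type I interferon genes and *CDKN2A*, in a region whose features on the array differed among themselves. *IFNE*, the neighbour with the nearest start site and an interferon of epithelia, was at 5.53 in miR-184 and 5.68 in NC (-0.15). *CDKN2B* and *CDKN2A*, cell cycle inhibitors named after their values were seen, were at 7.19 in miR-184 and 8.96 in NC (-1.77) and at 7.56 in miR-184 and 8.32 in NC (-0.76). The precursor *MIR31* itself had a difference of the other sign, with 4.28 in miR-184 and 3.79 in NC (0.49). The array's feature for a microRNA gene holds probes for the hairpin, and the amount of mature microRNA was not measured.

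Of the 9 microRNA hosts below the median signal, *MIR100HG* had the largest difference, at 4.12 in miR-184 and 3.61 in NC (0.51, 1.42 times). *MIR1915HG* was at 3.94 and 3.65 (0.29), *MIR381HG* at 3.03 and 2.78 (0.25) and *MIR210HG*, whose microRNA is induced by hypoxia, at 3.84 and 3.59 (0.25), in miR-184 and NC in each case. *MIR3171HG* was at 3.89 in miR-184 and 3.72 in NC (0.17), *MIR670HG* at 3.61 and 3.44 (0.17), and *MIR99AHG* at 3.50 and 3.44 (0.06). *MIR3976HG* was at 3.37 in miR-184 and 3.42 in NC (-0.04) and *MIR4500HG* at 3.59 and 3.63 (-0.05). At this signal all 9 differences were below the threshold.

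The microRNA precursors did not follow 1 direction. Of 23 with a value in 12 hosts, 13 were above 0 and 10 below, with a median of 0.03, 1 lower and 0 higher, while over the 1041 microRNA genes on the arrays 3.17% were lower and 6.44% higher, with a median of 0.07. The precursor counted as lower was *MIR181B1* in *MIR181A1HG*, at 6.18 in miR-184 and 7.02 in NC (-0.84, 1.80 times lower). Its partner *MIR181A1* in the same host was at 3.14 in miR-184 and 3.06 in NC (0.08). On chromosome 9 the pair in *MIR181A2HG* showed the reverse order, with *MIR181A2* at 5.99 in miR-184 and 6.24 in NC (-0.25) and *MIR181B2* at 8.03 in miR-184 and 7.68 in NC (0.35). Precursors of the same seed family thus differed in sign between and within the hosts, although *MIR181A1* was below the median signal. Of the 23 precursors 16 had a lower difference than the host, but only 6 of the 23 reached the median signal.

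The related clusters of *MIR100HG* and *MIR99AHG* had small differences. In *MIR100HG*, *MIR100* was at 3.22 in miR-184 and 3.20 in NC (0.03), *MIRLET7A2* at 3.99 and 3.76 (0.24) and *MIR125B1* at 2.95 and 2.88 (0.07). In *MIR99AHG*, *MIR99A* was at 2.62 in miR-184 and 2.59 in NC (0.03), *MIRLET7C* at 3.23 and 3.22 (0.01) and *MIR125B2* at 3.37 and 3.29 (0.08). All 6 precursors were below the median signal, and none differed by more than 0.24. *MIR210* was at 4.21 in miR-184 and 4.25 in NC (-0.04). In *MIR381HG*, part of the imprinted microRNA cluster of chromosome 14, 6 precursors had differences between -0.23 and 0.55, the highest for *MIR889*.

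Apart from *RUNX1-IT1*, the other lncRNAs at high signal were nearly level between the arrays. *MALAT1*, a nuclear RNA of the splicing speckles, was at 17.08 in miR-184 and 16.98 in NC (0.10). *TUG1*, a lncRNA with roles in chromatin regulation, was at 14.55 in miR-184 and 14.60 in NC (-0.05). *NORAD*, a cytoplasmic RNA that binds PUMILIO proteins and guards chromosome stability, was at 11.22 in miR-184 and 11.35 in NC (-0.13). Over the other scalings *MALAT1* lay between 0.06 and 0.24, *NORAD* between -0.17 and -0.09 and *TUG1* between -0.09 and 0.11, so no direction is given for *TUG1*. The features around *MALAT1* in the array's order were not uniform. The feature 3 places before it was at 8.81 in miR-184 and 7.98 in NC (0.83, 1.78 times). It carries several symbols and so gives no single gene a value here. *FRMD8* before that was at 4.54 in miR-184 and 5.16 in NC (-0.62), and the unnamed feature after *MALAT1* at 8.79 in miR-184 and 9.43 in NC (-0.63). The other 5 of the 8 features around it stayed within 1.5 times.

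*HOTAIR*, *MEG3* and *DLEU1* were below the median signal. *HOTAIR*, a transcript of the *HOXC* locus, was at 3.53 in miR-184 and 3.30 in NC (0.23). *MEG3*, an imprinted lncRNA of chromosome 14, was at 3.17 in miR-184 and 3.01 in NC (0.16), with its intronic *MIR770* at -0.17. *DLEU1*, from a region of chromosome 13 often lost in leukaemia, was at 3.33 in miR-184 and 3.27 in NC (0.05). The deposited values hold no detection call, so whether these 3 lncRNAs were expressed was not tested.

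The nearest protein-coding genes showed no common pattern with the 26 lncRNAs. The protein-coding gene with the nearest start site had a value for 18 of the 26, and 8 of the 18 were on the same side of 0. These 18 lay between 408 and 723793 bases away by RefSeq positions, so not all of them are adjacent genes. *MORC2*, which starts next to *TUG1*, was at 8.39 in miR-184 and 8.42 in NC (-0.03), and the neighbours of *MALAT1* and *RUNX1-IT1* had no value. Only *UBASH3B*, a phosphatase gene that was named after its value was seen, passed the threshold, at 10.13 in miR-184 and 8.53 in NC (1.60, 3.03 times). Its start lies 232851 bases from that of *MIR100HG*. The count was thus 1 of 18 higher and 0 lower, against 3.74% and 4.17% of all genes. *BLID*, an intronless gene that RefSeq places inside *MIR100HG*, was also higher, at 6.22 in miR-184 and 4.17 in NC (2.05, 4.15 times), and it too was chosen after its value was seen. An unnamed feature next to *MIR100HG* in the array's order was at 6.71 in miR-184 and 4.50 in NC (2.21, 4.63 times). The feature of *MIR100HG* itself (0.51) and its 3 precursors (0.03 to 0.24) were above 0 too but short of the threshold. All of them were below the median signal, where few genes pass it, so a shared difference cannot be judged from them. The strands and transcripts behind these features were not compared.

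**Figure D4:**
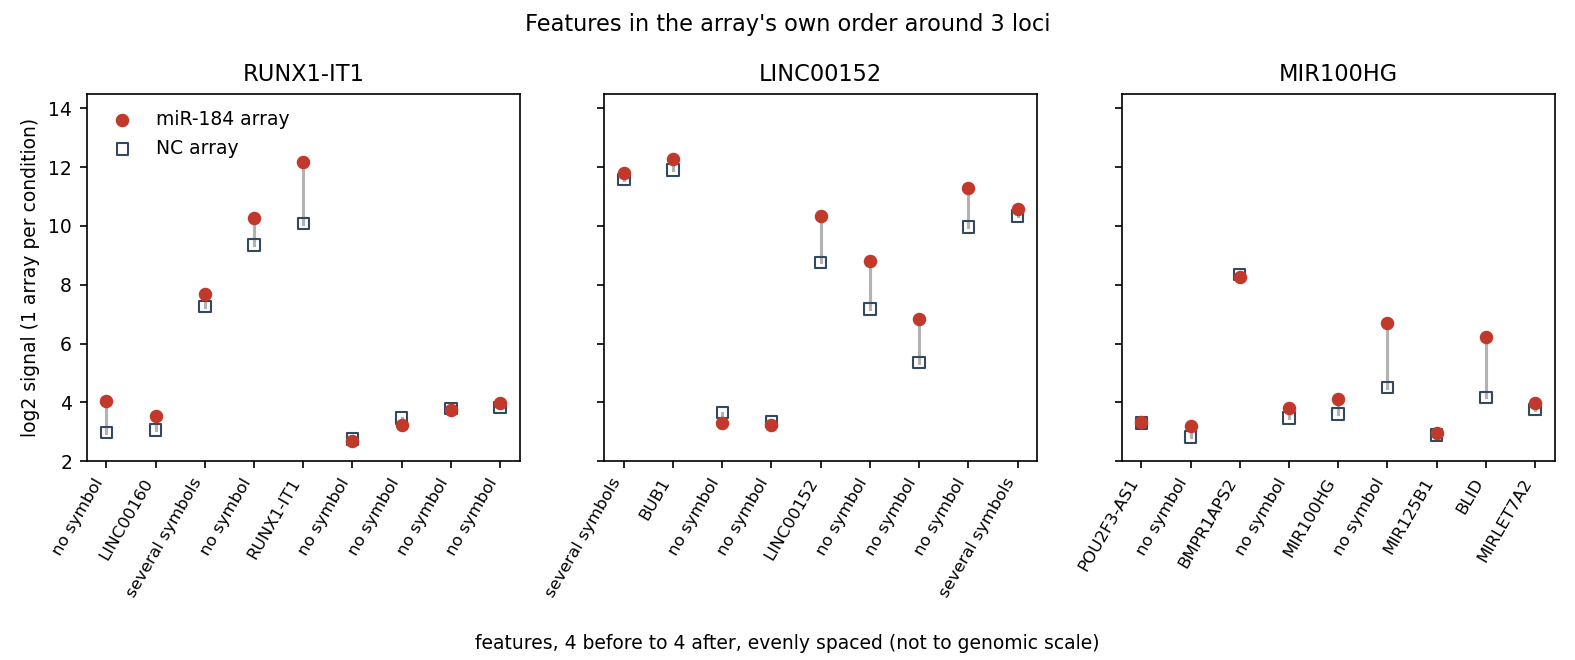
Log2 signals (y axis) in the miR-184 array (filled circles) and the NC array (open squares) of 9 features in the array's own order around *RUNX1-IT1*, *LINC00152* and *MIR100HG*, evenly spaced and not to genomic scale. *RUNX1-IT1* (12.17 in miR-184, 10.07 in NC), *LINC00152* (10.34 and 8.76) with the 3 features after it, and *BLID* (6.22 and 4.17) stand apart between the arrays, while *MIR100HG* (4.12 and 3.61) does not.

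The proteins that make, hold or degrade these RNAs were described from 7 lists. In 5 of these (snoRNA-protein particles, TOP mRNAs, nonsense-mediated decay, nuclear speckles and paraspeckles) all genes with a value were at or above the median signal, where 6.25% of all genes were higher and 7.77% lower and the median was -0.02. Of 15 genes of snoRNA-protein particles with a value (17 listed), 2 were higher and 0 lower, with a median of -0.11. *NOLC1*, a nucleolar chaperone of these particles, was at 9.38 in miR-184 and 7.53 in NC (1.85, 3.61 times), and *RUVBL2*, an ATPase of their assembly, at 9.58 in miR-184 and 8.87 in NC (0.70). Its partner *RUVBL1* was at 8.55 in miR-184 and 8.12 in NC (0.43), and *NOP10*, a core protein of the H/ACA particles, at 9.64 in miR-184 and 10.06 in NC (-0.42). The other 13 genes stayed within the threshold.

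Many snoRNA hosts start with the same pyrimidine tract (TOP) as ribosomal protein mRNAs. Of 33 TOP mRNAs with a value (56 listed), 2 were lower and 1 higher, with a median of -0.12, 22 below 0, 6 above and 5 with the same value in both arrays. Both counts are near or below the shares of 7.77% lower and 6.25% higher among genes of that signal. Equal values in both arrays were found for 923 of 22368 genes, 267 of them at or above the median signal. The reason for the equal values was not tested. *RPS19*, a ribosomal protein gene, was at 10.59 in miR-184 and 11.90 in NC (-1.31), and *NPM1*, the gene of a nucleolar protein, at 13.51 in miR-184 and 14.21 in NC (-0.70). *EIF3F*, an initiation factor gene, was at 9.58 in miR-184 and 8.63 in NC (0.95), and *RPL30* at 7.99 in miR-184 and 8.53 in NC (-0.54).

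Nonsense-mediated decay factors, which degrade spliced host transcripts, had no gene past the threshold (0 of 14 with a value, 17 listed) and a median of -0.07. The largest differences were those of *SMG8* (-0.57), the helicase gene *UPF1* (-0.47), *CASC3* (0.42) and *SMG5* (-0.40). The genes of microRNA precursor processing likewise had 0 of 10 past it (12 listed) and a median of -0.12. *DROSHA* was at 9.54 in miR-184 and 9.07 in NC (0.47), followed by *RAN* (0.30), *TARBP2* (-0.26) and *ADAR* (-0.24).

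Nuclear speckles and paraspeckles are nuclear bodies in which lncRNAs reside. Of 13 speckle genes, the proteins of the body where MALAT1 resides, 11 were below 0, 1 above and 1 had equal values, with a median of -0.31 (14 listed), while of the 11184 genes of that signal 5723 were below 0 and 5194 above. *SRRM2*, a scaffold protein of speckles, was the only one past the threshold, at 10.38 in miR-184 and 11.37 in NC (-0.99). The splicing factor genes *SRSF6* (-0.52), *PNN* (-0.48) and *SRSF5* (-0.47) followed. *MALAT1* itself was at 0.10. Of 12 paraspeckle genes (15 listed), 6 were above and 6 below 0, with a median of 0.02. *TAF15*, an RNA-binding protein gene, was higher at 11.00 in miR-184 and 10.33 in NC (0.67), and the core gene *NONO* was at 13.72 in miR-184 and 14.11 in NC (-0.39). *SMARCA4* (0.31) and *NUDT21* (-0.30) followed. Of a list of PUMILIO genes and of partners of either PUMILIO or NORAD, 4 of 6 had a value and 0 passed the threshold. Their differences were -0.33 for *KHDRBS1*, -0.26 for *PUM2*, -0.15 for *NANOS3* and 0.13 for *NANOS1*, with a median of -0.20.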

How the data were processed

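The authors deposited log2 signals, 1 for each transcript cluster (feature) of an array. The methods name the Affymetrix Human Transcriptome Array 2.0 with Command Console and Expression Console, and its identifiers are the ones in the file. Against this, the labels speak of Agilent Cy3 labelling, and Agilent Feature Extraction 9.1 stands in the submitters' processing notes. No genome build of the array is given in the sources used here. The values were used as deposited.

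Of 65854 features, 23730 carried 1 gene symbol in the platform annotation, 1539 carried several and 40585 were not listed. Each of 22368 genes was read from its feature of highest mean signal, with 303 symbols updated through RefSeq synonyms, although the 26 genes were matched on the symbols of the annotation itself. The threshold was a ratio of 0.667 or less, or 1.499 or more (log2 of 0.584). The number of arrays limits the precision. Small RNAs were assigned to hosts, and neighbours to genes, by position in RefSeq (GRCh38.p14). The values to be given were those of genes past the threshold, the 10 genes of highest signal, genes listed by full symbol, up to 4 genes per list, and the small RNAs inside and the neighbours of the genes past the threshold and of a few well-known hosts. The other host genes, small RNAs and neighbours were added after their values were seen. The genes and lists were chosen with earlier results of these data known. Alternatives were centring, quantile normalization, a loess correction for signal (span 0.3), a signal filter, the mean over a gene's features, a 2 times threshold and other symbol rules. The threshold, the loess correction and the quantile normalization were tested on simulated data. The matching of symbols and the assignment of small RNAs and neighbours were not. The simulation planted large differences on a smaller spread than these arrays show, so it checked the code and not the precision of the results here. Python 3.11.15 was used with numpy 2.4.6, pandas 2.3.3, scipy 1.17.1, statsmodels 0.14.6 and matplotlib 3.10.9.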

Additional observations from a re-analysis of the deposited data

Results flagged for a closer look

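The following signals are in features outside the 26 genes and the counts made of them, and each was higher in the miR-184 array than in the NC array. The feature named *LINC00152*, an older name of *CYTOR*, was at 10.34 in miR-184 and 8.76 in NC (1.57, 2.97 times). The 3 unnamed features that follow it in the array's order were higher too, at 8.81 in miR-184 and 7.17 in NC (1.63), 6.82 in miR-184 and 5.35 in NC (1.47), and 11.29 in miR-184 and 9.96 in NC (1.33). These features stand after *BUB1* (12.26 in miR-184 and 11.90 in NC, 0.37) and before one that carries the symbol of *ANAPC1*. RefSeq places *MIR4435-2HG* between these genes and *CYTOR* elsewhere on chromosome 2, so which of the 2 lncRNAs the feature measures is not settled. The symbol *CYTOR* itself stands on 1 other feature, which is shared with another symbol and so has no value here. Named features that follow each other on the array were in ascending order of position in 98% of 22584 pairs. The unnamed feature before *RUNX1-IT1* differed by 0.93 and the unnamed feature after *MIR100HG* by 2.21, and what they measure was not tested.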

How the results depend on the processing

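With 1 array per condition, a dim gene cannot be told apart from one that is absent, and 13 of the 26 genes were below the median signal. The counts of 1 higher and 0 lower gene kept their values under every scaling, signal filter and threshold tried, and *RUNX1-IT1* lay between 2.06 and 2.15. When symbols were updated through RefSeq synonyms before matching, an alternative chosen after seeing the data, 2 genes were higher, since the *LINC00152* feature (1.57) then counted as *CYTOR*. Without the genes below the median signal, the median of the snoRNA hosts was -0.13 in place of -0.03. That of the small RNAs inside the hosts was -0.45 in place of -0.07, but the filter also changed their make-up. It kept all 8 snoRNAs and scaRNAs and only 6 of the 23 microRNA precursors. Quantile normalization moved *MALAT1* to 0.24 and *TUG1* to 0.11. *DLEU1* lay between -0.02 and 0.05. No paired analysis was possible because each condition has 1 array, although both carry replicate number 1.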
